A study of Homo sapiens with 15 samples.

Results

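NQO1, GCLM, GCLC, TXNRD1, SRXN1, SLC7A11, HMOX1, AKR1C1, AKR1C2 and AKR1B10 are antioxidant and detoxification genes that the transcription factor NRF2 is known to switch on. The 10 genes were chosen by name, and each was looked up by its symbol in both deposited tables. Of the 10, 9 were among the 12995 genes listed in each table. AKR1B10 was not listed and was not analysed here. A gene had to pass the authors' filter on low values to be listed, so the 9 genes are those with reads in at least part of the libraries.

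The data were 15 RNA-seq libraries in 5 groups of 3. The normal line was OKF6, from oral epithelium, whose labels give neither a construct nor a treatment. SCC15 and SCC25 are oral cancer lines that carried Cas9 and an inducible guide RNA against YBX1 in all of their libraries, also in the untreated ones. The SCC15 +YBX1 and SCC25 +YBX1 groups received no doxycycline and are labelled as wild type, and the SCC15 -YBX1 and SCC25 -YBX1 groups were given doxycycline at 1 µg/ml for 3 days and are labelled as YBX1 knockout. The transduced cells were sorted for 2 fluorescent markers and expanded, and no source calls them clones. SCC15 grew in DMEM supplemented with serum, unlike OKF6 and SCC25, which were kept in a serum-free keratinocyte medium, so line and medium cannot be told apart where SCC15 is compared with the others. The 6 libraries labelled SCC15 had almost none of the epithelial marker RNA that an oral squamous line would carry (values below), so the identity of that line is uncertain. The paper states that all lines were authenticated by short tandem repeat profiling. It classes SCC15 as mesenchymal-like and reports PDPN but not CDH1 protein in it by western blot. The identity was not tested in these libraries, and SCC15 stands for the label throughout. The labels do not say whether replicates were separate cultures. The p-values therefore measure only the spread between these libraries, which may be technical.

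NRF2, encoded by NFE2L2, is a transcription factor that cells hold at a low level by steady breakdown. KEAP1 binds it and hands it to the CUL3 and RBX1 ubiquitin ligase, and oxidants and electrophiles that modify KEAP1 let NRF2 escape to the nucleus. There it pairs with a small MAF protein (MAFF, MAFG or MAFK) and binds antioxidant response elements, which the repressor BACH1 can also occupy. The targets make glutathione, keep thioredoxin and peroxiredoxin reduced, reduce quinones and carbonyls, and break down haem. In squamous cancers of the head and neck and of the lung the pathway is known to be switched on by mutations of NFE2L2, KEAP1 or CUL3, while normal oral epithelium uses it against smoke and other oxidants.

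The core of the element that NRF2 binds was searched for as the letters TGACNNNGC on both strands, in the 2000 bases before the start of the canonical transcript (hg38). These letters are common. They were found for 7 of the 9 genes, or 77.8%, and for 53.7% of the windows of 12537 genes of the tables. The stricter form TGACTCAGC, which overlaps the first search, was found for 1 of the 9, NQO1, and for 2.46% of all windows. The sequences of NQO1, GCLM and TXNRD1 are shown because their matches lie closest to the start, and those of AKR1C1 and AKR1C2 because both carry the same 9 letters at like distances. The capitals mark the match, and the runs are read along the strand of the gene.
NQO1, 455 bases upstream, chr16:69726991-69727031, minus strand: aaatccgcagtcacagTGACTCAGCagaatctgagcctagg
GCLM, 34 bases upstream, chr1:93909440-93909480, minus strand: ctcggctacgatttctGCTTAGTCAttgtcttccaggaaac
TXNRD1, 99 bases upstream, chr12:104215664-104215704, plus strand: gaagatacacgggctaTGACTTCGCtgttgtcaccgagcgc
AKR1C1, 1869 bases upstream, chr10:4961530-4961570, plus strand: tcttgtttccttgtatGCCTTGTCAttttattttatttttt
AKR1C2, 1845 bases upstream, chr10:5005678-5005718, minus strand: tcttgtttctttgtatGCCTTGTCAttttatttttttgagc
The NQO1 and TXNRD1 matches read in the direction of the gene, and the GCLM, AKR1C1 and AKR1C2 matches lie on the opposite strand. GCLC had a match 870 bases upstream and HMOX1 one 1331 bases upstream. GCLM, TXNRD1 and AKR1C2 each had a further match, 1838, 1502 and 1811 bases upstream. No match was found for SRXN1 and SLC7A11, which says only that these letters are not in these windows.

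Values are log2 CPM, the log2 of the reads of a gene scaled to a common library total, with 0.5 reads added before the log. Each library held 4075290 to 6118501 counted reads, and 3 reads correspond to at most 0.677 CPM. Replicates of a group differed by more than counting noise, and no library was a copy of another. A chi-square of the reads over all genes, per degree of freedom, was 75.6 and 73.7 for OKF6 replicate 1 against replicates 2 and 3. Those were the highest values of any pair of replicates, and OKF6 replicates 2 and 3 had 24.8. YBX1, the target of the guide, had log2 CPM of 6.31 to 6.74 in SCC25 +YBX1 and 3.65 to 5.26 in SCC25 -YBX1, and of 5.11 to 6.00 in SCC15 +YBX1 and 3.13 to 3.71 in SCC15 -YBX1, so that the arms did not overlap in either line. The log2 change of YBX1 was -2.01 in SCC25 and -2.15 in SCC15, with adjusted p of 0.290 and 0.326 (limma). Around its stop codon 38.4% of 75-base pieces of YBX1 mapped as well to other places of hg38, and 0% of those from its last 500 bases did. The 6 epithelial markers (KRT5, KRT14, KRT6A, CDH1, EPCAM and TP63) together reached 20400 to 28000 CPM in OKF6 and 7860 to 16200 CPM in SCC25 +YBX1, but 3.37 to 26.3 CPM in SCC15 +YBX1, where TP63 had 0, 0 and 1 reads. All 6 were lower in SCC15 than in OKF6 and than in SCC25 (limma). The 6 mesenchymal markers summed to 440 to 478 CPM in SCC15 +YBX1, 804 to 1930 CPM in OKF6 and 2460 to 3230 CPM in SCC25 +YBX1. By gene, 3 of them were higher in SCC15 than in OKF6 (CDH2, ZEB1 and VIM) and 1 was lower (FN1), and against SCC25 3 were higher and 3 lower (limma). Of 5 leukocyte and endothelial markers only CD68 was listed. The part of these differences in the results that follow was not tested.

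In SCC15 +YBX1, 6 of the 9 NRF2 targets had less RNA than in OKF6 and 0 had more (limma, adjusted p under 0.05). AKR1C1, AKR1C2, NQO1, SRXN1, SLC7A11 and GCLC fell, and GCLM, TXNRD1 and HMOX1 did not pass. Over all genes, 23.4% were called lower and 26.9% higher in this comparison. In SCC25 +YBX1, 4 of the 9 had less RNA than in OKF6, namely SLC7A11, TXNRD1, NQO1 and SRXN1, and 1 had more, GCLM. The shares over all genes were 11.3% lower and 18.9% higher. Set directly against SCC25, SCC15 was lower in 5 (AKR1C1, AKR1C2, GCLM, NQO1 and GCLC) and higher in 2 (HMOX1 and TXNRD1), while 23.6% of all genes were lower and 20.0% higher. Quantile normalization called 2006 genes higher and 1837 lower for SCC25 minus OKF6, in place of 2450 and 1473, and left the counts of the 9 as they were. The median log2 change of the 9 genes was -1.47 for SCC15 minus OKF6, -0.83 for SCC25 minus OKF6 and -1.42 for SCC15 minus SCC25, against 0.10, 0.13 and -0.01 over all genes. These comparisons share their libraries in pairs, and the difference between the first and the second is the third.

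**Figure D1:**
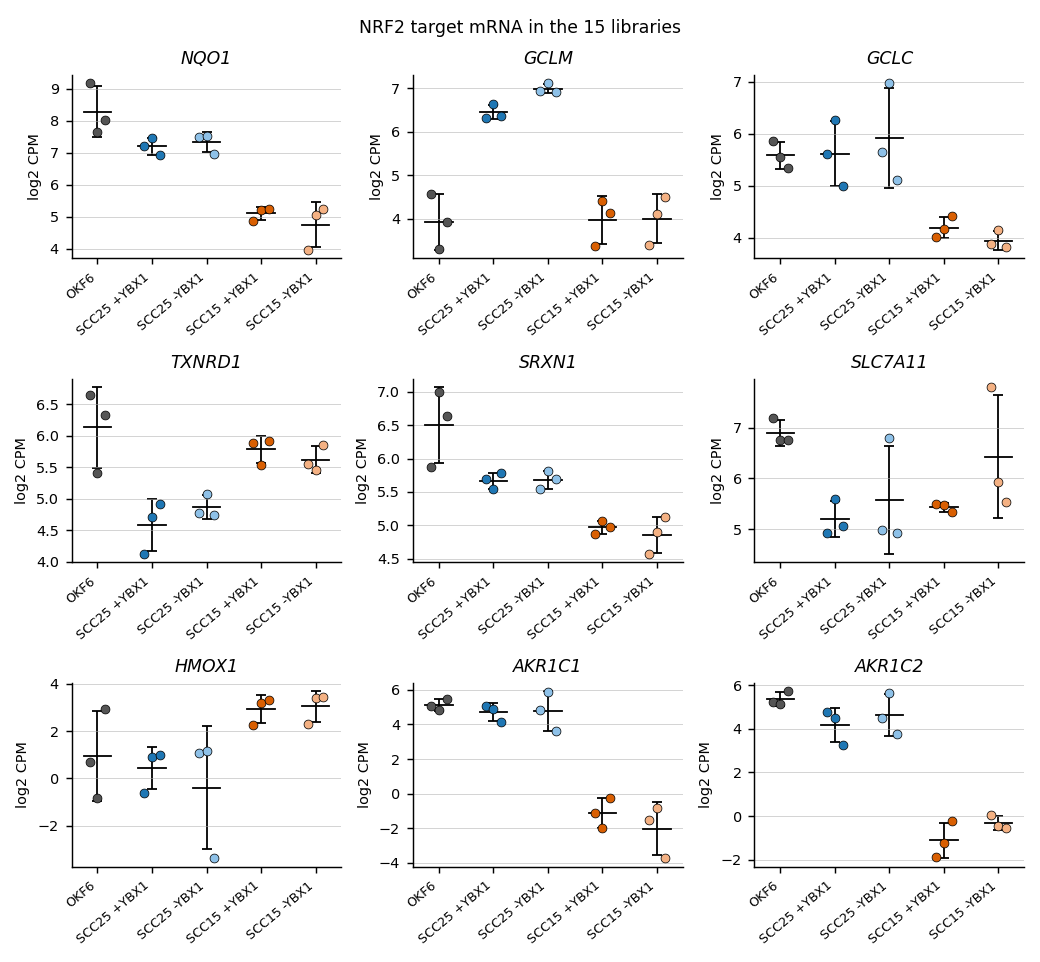
log2 CPM (vertical axis) of the 9 NRF2 targets in the 15 libraries, by group (horizontal axis). Each point is a library, the long bar is the mean and the whiskers are the SD of 3 libraries; AKR1C1 and AKR1C2 lie at or below 0.05 in every SCC15 library and above 3 in every other library, and GCLM is highest in SCC25.

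NQO1 encodes a cytosolic quinone reductase that uses NADPH or NADH to convert quinones to hydroquinones in a single step. In hg38 the gene (ENSG00000181019) occupies 69706996 to 69726668 of chromosome 16, minus strand. OKF6 had log2 CPM of 9.18, 7.64 and 8.02, against 7.22, 7.46 and 6.94 in SCC25 +YBX1 and 4.86, 5.20 and 5.25 in SCC15 +YBX1. Each OKF6 library was above each SCC25 library, and each SCC25 library above each SCC15 library, with no overlap. SCC15 minus OKF6 was -3.18 on the log2 scale (limma, adjusted p = 2.04e-05, standard error 0.34), a 9.04-fold difference. For SCC15 minus SCC25 it was -2.10 (standard error 0.34, adjusted p = 0.000545). The smaller step from OKF6 to SCC25, a log2 change of -1.08 (adjusted p = 0.0365, limma), no longer passed when the fit held only OKF6 and SCC25 (adjusted p = 0.0799). It also failed without any 1 of the SCC25 +YBX1 libraries, with adjusted p up to 0.125.

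AKR1C1 and AKR1C2 encode aldo-keto reductases that reduce carbonyl compounds and steroids, and the genes are neighbours on chromosome 10. AKR1C1 (ENSG00000187134) lies on the plus strand from 4963253 to 4983283 and AKR1C2 (ENSG00000151632) on the minus strand from 4987775 to 5018031, with 4491 bases between their ends. AKR1C1 had 172, 125 and 267 reads in OKF6, 181, 152 and 83 in SCC25 +YBX1, and 2, 1 and 5 in SCC15 +YBX1. AKR1C2 had 194, 156 and 313 reads in OKF6, 144, 114 and 46 in SCC25 +YBX1, and 1, 2 and 5 in SCC15 +YBX1. Both mRNAs were thus close to the limit of detection in SCC15, and OKF6 and SCC25 overlapped for AKR1C1 but not for AKR1C2. The reads summed over the group gave 36.2 CPM of AKR1C1 in OKF6 and 0.447 CPM in SCC15, a ratio of 81.0 (95% exact interval 40.8 to 189, counting error only). For AKR1C2 the ratio of OKF6 to SCC15 was 95.3 (48.1 to 222). The log2 changes in limma, which depend on the reads added before the log, were -6.24 (standard error 0.50, adjusted p = 2.29e-06) for AKR1C1 and -6.48 (standard error 0.53, adjusted p = 2.91e-06) for AKR1C2. Against SCC25 they were -5.83 and -5.30, with adjusted p of 5.01e-06 and 1.64e-05 (limma).

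Between SCC25 and OKF6 neither AKR1C gene passed. AKR1C1 had a log2 change of -0.42 (95% interval -1.51 to 0.68, adjusted p = 0.560, limma), and AKR1C2 of -1.18 (95% interval -2.36 to -0.00, adjusted p = 0.118). With voom weights on the recovered reads, AKR1C2 passed at an adjusted p of 0.0292. Which copy the values of this pair belong to is partly uncertain, and which part of the 3′ end the reads covered was not tested. Of the 75-base pieces from the 500 bases around the stop codon, 52.9% of AKR1C1 and 68.2% of AKR1C2 mapped as well elsewhere, mostly to the other gene. From the last 500 bases, 0% of the pieces of AKR1C1 and 41.9% of those of AKR1C2 mapped as well elsewhere. For NQO1, GCLM, GCLC, TXNRD1, SRXN1, SLC7A11 and HMOX1 no piece of either region did.

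The first and rate-limiting step of glutathione synthesis is carried out by glutamate-cysteine ligase, whose catalytic subunit is GCLC and whose modifier subunit is GCLM. The subunits followed different orders over the lines. GCLM (chromosome 1, 93885199 to 93909456, minus strand) had log2 CPM of 4.56, 3.29 and 3.92 in OKF6, 6.32, 6.64 and 6.37 in SCC25 +YBX1, and 3.36, 4.41 and 4.14 in SCC15 +YBX1. Every SCC25 library was above every OKF6 and SCC15 library, and OKF6 and SCC15 overlapped. GCLM rose by 2.52 on the log2 scale from OKF6 to SCC25 (standard error 0.36, adjusted p = 0.000573, limma), or 5.74-fold, and it passed with any 1 library left out. The log2 change for SCC15 minus OKF6 was 0.05 (95% interval -0.75 to 0.85, adjusted p = 0.924), and for SCC15 minus SCC25 it was -2.47 (adjusted p = 0.000252).

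GCLC (chromosome 6, 53497341 to 53616970, minus strand) had log2 CPM of 5.86, 5.56 and 5.35 in OKF6, 5.61, 6.26 and 5.00 in SCC25 +YBX1, and 4.01, 4.17 and 4.43 in SCC15 +YBX1. SCC25 spanned the whole range of OKF6, and SCC15 lay below both without overlap. SCC15 minus OKF6 was -1.39 on the log2 scale (limma, adjusted p = 0.00345, standard error 0.31) and SCC15 minus SCC25 -1.42 (adjusted p = 0.00371). For SCC25 minus OKF6 it was 0.03 (95% interval -0.66 to 0.72, adjusted p = 0.962), and quantile normalization turned its sign.

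SLC7A11 encodes the light chain of the cystine and glutamate exchanger, which brings in cystine for glutathione and is paired with the heavy chain SLC3A2. SLC7A11 stood at a log2 CPM of 7.20, 6.76 and 6.75 in OKF6, of 4.93, 5.59 and 5.07 in SCC25 +YBX1, and of 5.50, 5.47 and 5.34 in SCC15 +YBX1. Both cancer lines were below OKF6 without overlap, and they overlapped each other. The log2 change against OKF6 was -1.71 (standard error 0.22, adjusted p = 0.000329, limma) in SCC25 and -1.47 (standard error 0.22, adjusted p = 0.000261) in SCC15. SCC15 and SCC25 differed by 0.24 (95% interval -0.26 to 0.73, adjusted p = 0.419). The heavy chain SLC3A2 had a log2 change of -2.60 (adjusted p = 4.52e-06) for SCC15 minus OKF6 and of -1.79 (adjusted p = 9.71e-05) for SCC15 minus SCC25. SLC7A11 lies on chromosome 4 from 138164097 to 138242349, on the minus strand.

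TXNRD1 encodes cytosolic thioredoxin reductase, which passes electrons from NADPH to thioredoxin, and SRXN1 encodes sulfiredoxin, which repairs overoxidized peroxiredoxins. TXNRD1 (chromosome 12, 104215779 to 104350307, plus strand) had log2 CPM of 6.64, 5.41 and 6.33 in OKF6, 4.12, 4.71 and 4.91 in SCC25 +YBX1, and 5.89, 5.53 and 5.92 in SCC15 +YBX1. SCC25 was below both other lines without overlap, which is the reverse of the order of GCLM. For TXNRD1, SCC25 minus OKF6 was -1.55 on the log2 scale (limma, adjusted p = 0.00534, standard error 0.33) and SCC15 minus SCC25 was 1.21 (adjusted p = 0.0124). The latter did not pass without SCC25 +YBX1 replicate 1, at 0.98 (adjusted p = 0.0570). For SCC15 minus OKF6 it was -0.34 (95% interval -1.07 to 0.38, adjusted p = 0.409).

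SRXN1 (chromosome 20, 646615 to 653200, minus strand) had log2 CPM of 5.88, 6.99 and 6.64 in OKF6, 5.70, 5.54 and 5.78 in SCC25 +YBX1, and 4.87, 5.06 and 4.98 in SCC15 +YBX1. The 3 lines did not overlap, with OKF6 highest and SCC15 lowest, as for NQO1. SCC15 minus OKF6 was -1.53 on the log2 scale (limma, adjusted p = 0.000645, standard error 0.26). For SCC25 minus OKF6 it was -0.83 (adjusted p = 0.0366), which survived only the omission of OKF6 replicate 1 among the 6 fits with 1 library fewer, and not with only those groups in the fit (adjusted p = 0.0766). Between SCC15 and SCC25 the log2 change was -0.70 (adjusted p = 0.0533), short of the threshold, and with only these lines in the fit it passed (adjusted p = 0.00326).

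HMOX1 encodes haem oxygenase 1, which breaks haem down to biliverdin, iron and carbon monoxide, and it had few reads in these cells. HMOX1 (chromosome 22, 35380361 to 35394214, plus strand) had 8, 2 and 45 reads in OKF6, 3, 9 and 9 in SCC25 +YBX1, and 26, 54 and 65 in SCC15 +YBX1. SCC15 was above SCC25 in every library, while OKF6 replicate 3 lay within the range of SCC15 and the other OKF6 libraries did not. SCC15 minus SCC25 was 2.51 on the log2 scale (limma, adjusted p = 0.0382, standard error 0.87), and it passed in 0 of the 6 fits with 1 library fewer, where the adjusted p ranged from 0.0566 to 0.140. For SCC15 minus OKF6 it was 2.00 (95% interval 0.07 to 3.92, adjusted p = 0.0788), which passed with voom weights (adjusted p = 0.0461) and without OKF6 replicate 3, where the log2 change was 3.00 (adjusted p = 0.00601). Summed over the group, SCC15 had 8.09 CPM, OKF6 3.53 CPM and SCC25 1.38 CPM.

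**Figure D2:**
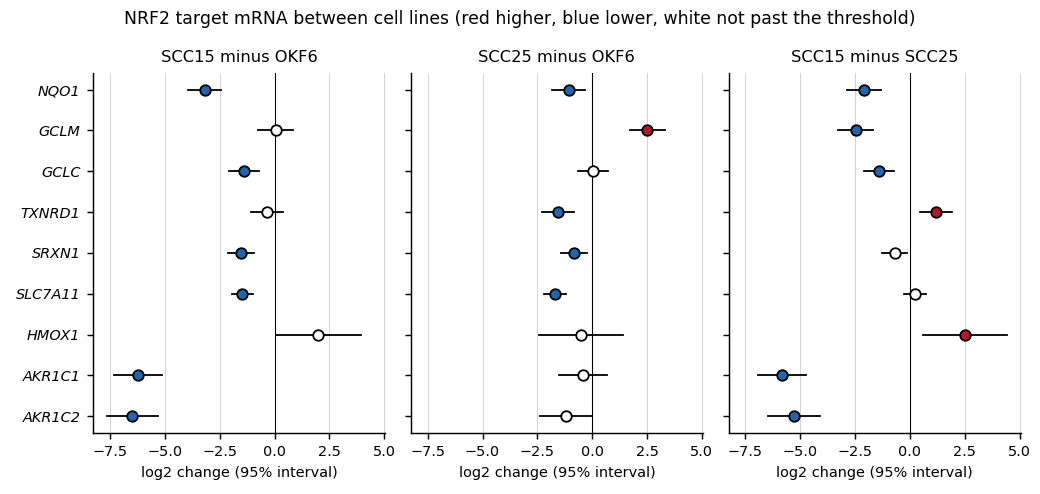
log2 change (horizontal axis, log2 scale) of the 9 NRF2 targets (vertical axis) in the 3 comparisons of the untreated lines, with 95% intervals from limma. Red and blue points passed an adjusted p of 0.05 as higher and lower and white points did not; the only red point against OKF6 is GCLM in SCC25, at 2.52, and AKR1C1 and AKR1C2 in SCC15 lie furthest left, at -6.24 and -6.48.

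The mRNAs of 13 genes whose proteins set NRF2 activity were all in the tables, and their proteins were not measured in these libraries. Against OKF6, 5 of the 13 fell and 1 rose in SCC15, and 1 fell and 2 rose in SCC25 (limma). Of all genes, 23.4% fell and 26.9% rose in SCC15, and 11.3% fell and 18.9% rose in SCC25. The median log2 change over the list was -0.06 and 0.13, against 0.10 and 0.13 over all genes. NFE2L2, which encodes NRF2 itself, had log2 CPM of 4.92, 6.32 and 5.20 in OKF6, 3.79, 3.95 and 3.30 in SCC25 +YBX1, and 2.03, 2.94 and 2.84 in SCC15 +YBX1. OKF6 was highest and SCC15 lowest, with no overlap between the lines. NFE2L2 fell by 2.87 on the log2 scale in SCC15 (standard error 0.42, adjusted p = 0.000189) and by 1.80 in SCC25 (adjusted p = 0.00869), and SCC15 minus SCC25 was -1.08 (adjusted p = 0.0589). KEAP1, the inhibitor of NRF2, had log2 CPM of 6.16, 5.53 and 5.54 in OKF6, 7.50, 7.47 and 7.45 in SCC25 +YBX1, and 6.66, 7.26 and 7.18 in SCC15 +YBX1. It was above OKF6 in every library of both cancer lines, with log2 changes of 1.73 (adjusted p = 0.000334) in SCC25 and 1.29 (adjusted p = 0.000737) in SCC15.

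Of the partners and competitors of NRF2, MAFF, MAFG, BACH1 and the related factor NFE2L1 fell in SCC15 against OKF6. MAFF had 436, 251 and 442 reads in OKF6 and 57, 17 and 13 in SCC15 +YBX1, a difference of -4.14 on the log2 scale (limma, adjusted p = 4.09e-05, standard error 0.49), and had 377, 381 and 319 in SCC25 +YBX1. NFE2L1, an NRF2-related factor that binds the same elements, had a log2 change of -2.06 (adjusted p = 2.43e-05). Of its pieces, 43.0% from the last 500 bases and 0% from around the stop codon mapped as well to another place. BACH1 had -1.97 (adjusted p = 9.86e-05) and MAFG -0.51 (adjusted p = 0.0355). In SCC25 against OKF6 none of these 4 passed, while SQSTM1, an adaptor that can take KEAP1 to autophagy, had a log2 change of 1.07 (adjusted p = 0.0259) although its libraries overlapped those of OKF6. CUL3, RBX1, MAFK, BTRC, SYVN1 and DPP3 passed in neither comparison with OKF6. Between SCC15 and SCC25, MAFF, NFE2L1, BACH1, DPP3 and SQSTM1 were lower in SCC15, at -4.14, -2.09, -1.46, -0.99 and -0.89.

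**Figure D3:**
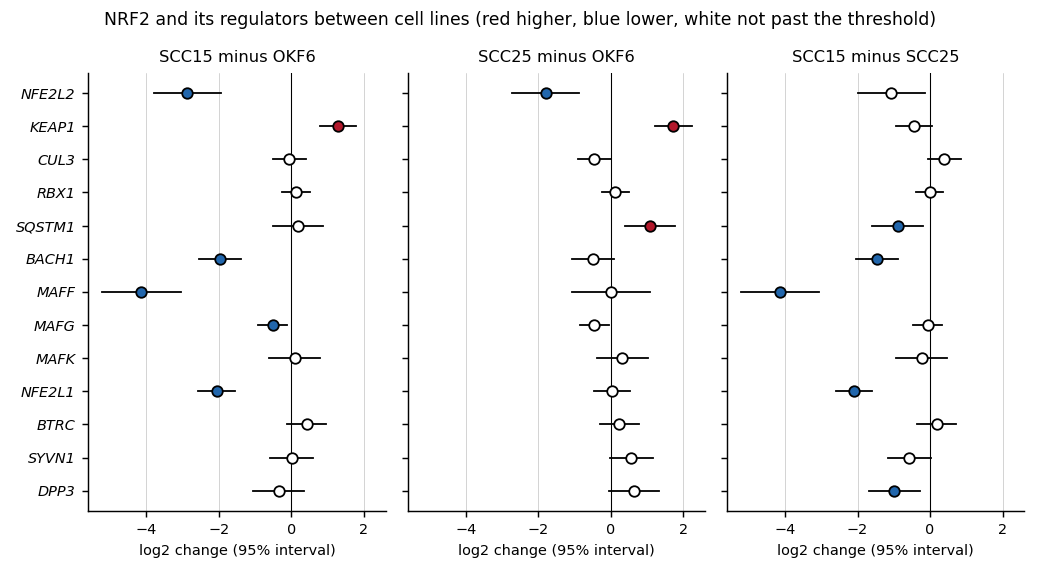
log2 change (horizontal axis, log2 scale) of NFE2L2 and 12 genes that regulate or partner NRF2 (vertical axis) in the 3 comparisons of the untreated lines, with 95% intervals from limma and colours as for the targets. NFE2L2 lies left of 0 and KEAP1 right of 0 against OKF6 in both cancer lines, and MAFF stands furthest left in SCC15, at -4.14.

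The other glutathione genes were split between higher and lower, while most of the called thioredoxin and peroxiredoxin genes were higher than in OKF6. Of 20 other glutathione genes, 5 rose and 5 fell in SCC15 against OKF6 (median log2 change -0.01), 5 rose and 3 fell in SCC25 against OKF6, and SCC15 was higher in 5 and lower in 4 than SCC25 (limma). Of all genes, 26.9% rose and 23.4% fell in SCC15 against OKF6, and 18.9% rose and 11.3% fell in SCC25. For SCC15 minus SCC25, 20.0% were higher and 23.6% lower. The glutathione counts lay near these shares. GPX2, an epithelial glutathione peroxidase, had 18, 72 and 92 reads in OKF6, 41, 22 and 8 in SCC25 +YBX1, and 0 in each SCC15 +YBX1 library. It was at least 69.7-fold lower in SCC15 than in OKF6, taking 3 reads over the group as the floor. GPX3, a secreted glutathione peroxidase, had 0, 0 and 2 reads in OKF6 and 68, 103 and 128 in SCC15 +YBX1, a ratio of 130 (95% exact interval 35.7 to 1080). Of the 14 other thioredoxin and peroxiredoxin genes, 8 rose and 2 fell in SCC15 against OKF6 (median log2 change 1.12), and 6 rose and 1 fell in SCC25 (median 0.59). PRDX4, a peroxiredoxin of the endoplasmic reticulum, had a log2 change of 1.77 (adjusted p = 7.87e-05, limma) in SCC15. TXN, thioredoxin itself, was lower than in OKF6 in SCC15, at -1.13 (adjusted p = 0.00317), and in SCC25 (adjusted p = 0.0124), though 34.9% of the pieces around its stop codon mapped as well elsewhere.

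Among 8 NADPH-producing enzymes, 2 rose and 2 fell in SCC15 and 1 rose and 1 fell in SCC25 against OKF6. The shares over all genes were 26.9% higher and 23.4% lower in SCC15, and 18.9% higher and 11.3% lower in SCC25. The NADPH counts lay near these shares. ME1, cytosolic malic enzyme and a known NRF2 target, was lower than in OKF6 in both, at -1.19 (adjusted p = 0.00462, limma) in SCC15 and -2.03 (adjusted p = 0.000460) in SCC25. IDH2, the mitochondrial isocitrate dehydrogenase, was higher in both, at 1.46 and 2.95. The 8 haem and iron genes gave 2 higher and 3 lower in SCC15 and 2 higher and 0 lower in SCC25. FTH1, the heavy chain of the iron store ferritin, had log2 CPM of 9.25, 9.25 and 9.50 in OKF6, 9.89, 9.74 and 9.77 in SCC25 +YBX1, and 8.23, 7.75 and 8.10 in SCC15 +YBX1. Its change for SCC15 minus OKF6 was -1.31 (adjusted p = 0.000192). Of its pieces, 45.3% around the stop codon and 19.8% from the last 500 bases mapped as well elsewhere, since ferritin has many pseudogenes. Of 3 other antioxidant enzymes, 1 rose (SOD1, 1.57) and 1 fell (CAT, -0.79) in SCC15, and 1 rose in SCC25 (SOD2, 0.93, with overlapping libraries).

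Of 22 other detoxification and export genes, 6 rose and 7 fell in SCC15 against OKF6 (median log2 change -0.51), and 4 rose and 5 fell in SCC25 (median -0.20, limma). In SCC15 minus SCC25, 4 were higher and 8 lower. Of all genes, 26.9% rose and 23.4% fell in SCC15 against OKF6, and 18.9% rose and 11.3% fell in SCC25. For SCC15 minus SCC25 the shares were 20.0% higher and 23.6% lower. AKR1C3, the neighbour of the AKR1C pair, had 108, 26 and 52 reads in OKF6, 42, 83 and 21 in SCC25 +YBX1, and 0 in each SCC15 +YBX1 library. It was at least 71.3-fold lower in SCC15 than in OKF6, again with 3 reads over the group as the floor. Of its pieces, 37.2% from the last 500 bases and 26.0% around the stop codon mapped as well to related genes. PTGR1, a reductase of prostaglandins and reactive alkenals, had 125, 144 and 281 reads in OKF6, 88, 116 and 89 in SCC25 +YBX1, and 1, 0 and 0 in SCC15 +YBX1. The ratio of OKF6 to SCC15 was 632 (95% exact interval 113 to 25000). The other direction was held by EPHX1, microsomal epoxide hydrolase, at 4.76 (adjusted p = 0.000689) in SCC15 and 3.70 (adjusted p = 0.00733) in SCC25 against OKF6. EPHX1 had 7, 0 and 5 reads in OKF6, 47, 29 and 30 in SCC25 +YBX1, and 49, 98 and 130 in SCC15 +YBX1. The size of its log2 changes thus depends on the reads added before the log. List medians closer to 0 than the shift between scalings carry no direction. Setting the library medians equal raised SCC15 against OKF6 by 0.16 in the median gene and SCC15 against SCC25 by 0.15.

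After YBX1 knockdown, 0 of the 9 targets passed in SCC15 and 0 in SCC25 (limma, adjusted p under 0.05), where the share of all genes called was 0% in each. YBX1 itself did not pass either, at log2 changes of -2.15 in SCC15 and -2.01 in SCC25, so these counts cannot show that the targets were unchanged. At an unadjusted p under 0.05 the members again gave 0 in each line, and all genes gave 2.32% (302 genes) in SCC15 and 3.09% (401 genes) in SCC25. Voom weights on the recovered reads also called 0 genes in each line. The fitted log2 changes of the 9 genes lay between -0.91 and 0.99 in SCC15, with 4 above 0 and a median of -0.11, and between -0.81 and 0.54 in SCC25, with 8 above 0 and a median of 0.28. The arms of the knockdown did not overlap for 1 of the 9 in each line, SLC7A11 in SCC15 and GCLM in SCC25, against 7.04% and 7.31% of all genes. The difference in the knockdown effect between the lines passed for 0 of the 9 and for 0% of all genes (limma). At an unadjusted p under 0.05 it passed for 0 of the 9 and for 2.26% of all genes (294 genes).

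Among the 9 targets the lowest unadjusted p in SCC25 belonged to GCLM. In +YBX1 its log2 CPM read 6.32, 6.64 and 6.37, and with knockdown 6.94, 7.12 and 6.91. Every -YBX1 library was above every +YBX1 library, and the change by replicate number was upward in 3 of 3. The log2 change was 0.54 (95% interval -0.08 to 1.16), with an unadjusted p of 0.0814 and an adjusted p of 1.00 (limma). In SCC15 the log2 change of GCLM was 0.03 (95% interval -0.59 to 0.65).

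In SCC15 the target with the lowest unadjusted p was SLC7A11. Without doxycycline its log2 CPM read 5.50, 5.47 and 5.34, and with it 7.80, 5.93 and 5.54. The arms did not overlap, and replicate 1 of -YBX1 stood apart from the other libraries. The log2 change was 0.99 (95% interval -0.15 to 2.13, unadjusted p = 0.0837, adjusted p = 1.00, limma), and 0.30 without that library. Within replicate numbers it was 2.30, 0.47 and 0.20.

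CHAC1, ASNS and DDIT3 belong to the genes that ATF4, a factor that also drives SLC7A11, switches on when amino acids are short. The library with the highest SLC7A11, SCC15 -YBX1 replicate 1, held 1002 reads of CHAC1, which breaks down glutathione, 1167 of ASNS, asparagine synthetase, and 568 of the stress factor DDIT3. In the other SCC15 -YBX1 libraries the reads were 69 and 34 for CHAC1, 329 and 251 for ASNS, and 65 and 89 for DDIT3. In SCC25 the library that stood out was -YBX1 replicate 2, with SLC7A11 at a log2 CPM of 6.79 against 4.99 and 4.92, CHAC1 at 5.46 against 3.41 and 3.65, and ASNS at 5.32 against 3.93 and 4.09. GCLC was also highest there, at 6.98 against 5.65 and 5.12. Both libraries also stood apart over all genes. By the chi-square given above, pairs with SCC15 -YBX1 replicate 1 had 27.5 and 27.3 per degree of freedom, and the remaining pair 3.89. Pairs with SCC25 -YBX1 replicate 2 had 41.2 and 42.6, and the remaining pair 21.6. These libraries thus differed in more than the genes named, and the cause was not tested. Of the 8 amino acid response genes 0 passed in either line (limma, and 0 with voom weights), and at an unadjusted p under 0.05 only TRIB3 in SCC15 did, with median log2 changes of 0.62 in SCC15 and 0.33 in SCC25. Between the untreated lines, 4 of the 8 were higher and 2 lower in SCC15 than in OKF6, against 26.9% and 23.4% of all genes. Without SCC25 -YBX1 replicate 2 the log2 change was -0.24 for SLC7A11 and -0.24 for GCLC.

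**Figure D4:**
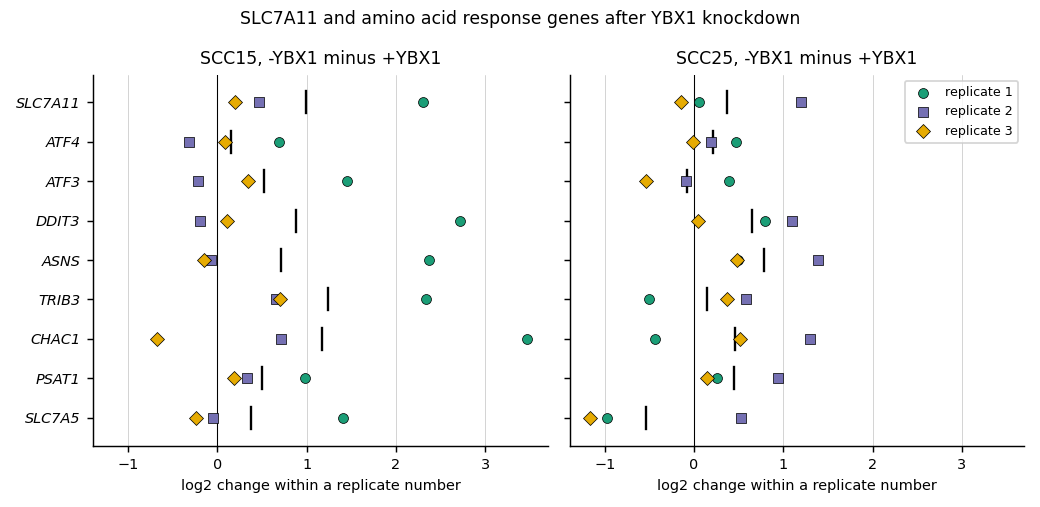
log2 change from +YBX1 to -YBX1 within a replicate number (horizontal axis, log2 scale) for SLC7A11 and 8 amino acid response genes (vertical axis) in SCC15 and SCC25, with a marker for each replicate and a bar at the mean. In SCC15 replicate 1 lies furthest right for every gene, at 2.30 for SLC7A11 and 3.47 for CHAC1, and in SCC25 replicate 2 does so for 7 of the 9 genes shown.

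For the other targets the knockdown intervals were as follows. The log2 change of NQO1 was -0.35 (95% interval -0.97 to 0.27) in SCC15 and 0.13 (-0.50 to 0.75) in SCC25, neither of which passed (limma). For GCLC the values were -0.25 (-1.11 to 0.61) and 0.29 (-0.56 to 1.15). The thioredoxin pair had the narrowest intervals, with TXNRD1 at -0.17 (-0.64 to 0.31) and 0.28 (-0.19 to 0.76) and SRXN1 at -0.11 (-0.49 to 0.28) and 0.01 (-0.37 to 0.39). HMOX1 had 35, 64 and 72 reads in SCC15 -YBX1 and 10, 11 and 0 in SCC25 -YBX1, so its SCC25 change of -0.81 (-2.87 to 1.24) rests on few reads. AKR1C1 had 2, 3 and 0 reads and AKR1C2 7, 4 and 4 in SCC15 -YBX1, so both stayed near the limit of detection there. In SCC25 the log2 changes of the AKR1C pair were 0.08 (-1.53 to 1.68) and 0.46 (-0.76 to 1.69). An interval that holds 0 does not show that knockdown left a gene as it was.

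**Figure D5:**
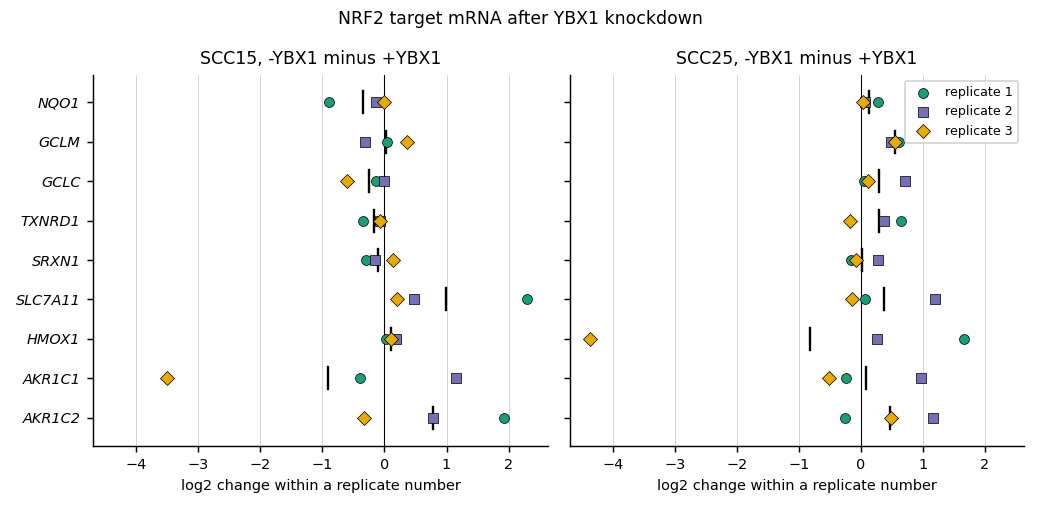
log2 change from +YBX1 to -YBX1 within a replicate number (horizontal axis, log2 scale) for the 9 NRF2 targets (vertical axis) in SCC15 and SCC25, with a marker for each replicate and a bar at the mean. GCLM lies right of 0 in 3 of 3 pairs in SCC25, and SLC7A11 in 3 of 3 pairs in SCC15, where replicate 1 is at 2.30.

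Over the 15 libraries the targets did not move as 1 set. AKR1C1, AKR1C2, NQO1 and GCLC went together, with Pearson r from 0.85 to 0.96 between them, and SRXN1 had r of 0.64 to 0.82 with each of them. TXNRD1 and GCLM ran opposite ways (r = -0.73), and HMOX1 had r of -0.50 to -0.61 with NQO1, GCLC, AKR1C1 and AKR1C2. With NFE2L2 mRNA, r was 0.90 for SRXN1, 0.86 for AKR1C2 and 0.79 for NQO1, but 0.14 for GCLM, 0.02 for TXNRD1 and -0.47 for HMOX1. The points are 3 lines in 5 groups, so these values describe mostly the order of the lines and come with no test. The 5 genes above the median expression most like the mean of the 9 scaled targets were CYLD (r = 0.960), ITM2B (0.953), SLC3A2 (0.945), ZFP36L2 (0.944) and SPINT2 (0.941). Each of these had its highest mean in OKF6 and its lowest in SCC15.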

How the data were processed

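Libraries were QuantSeq 3′ FWD, so reads come from the end of the mRNA. Cutadapt trimming, HISAT2 alignment (hg38), featureCounts counting and limma normalisation and filtering were done by the authors. Their methods state a limma version, and no separate versions of Cutadapt, HISAT2 and featureCounts were given in the sources used here. The deposited log2 values are log2 CPM with 0.5 reads added, in a table of the lines (9 libraries) and a table of the knockdown (12 libraries), whose 6 shared libraries match within 5e-08. Whole reads could be recovered for 100% of the values, to within 0.1 reads plus 0.001 per read. Libraries held 4075290 to 6118501 reads. Intervals and floors on reads cover counting error only.

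Groups follow the labels. Fits used limma 3.58.1 (R 4.3.3) with an empirical Bayes variance trend, every group of a table included, two-sided tests and Benjamini-Hochberg correction across the 12995 genes at 0.05. The code was tested on simulated reads. Within the knockdown, libraries with the same number shared deviations from their group (correlations of 0.22 to 0.51 for SCC15 and 0.14 to 0.46 for SCC25 across 6497 genes). The highest correlation with another number was lower each time, but close for SCC15 replicate 2 (0.35 against 0.32), SCC15 replicate 3 (0.22 against 0.18) and SCC25 replicate 1 (0.14 against 0.10). Changes by replicate number therefore rest on a pairing that the data show only in part and the labels do not state. Between lines, correlations of libraries with the same number ran from -0.21 to 0.26. In most pairs the highest correlation with another number was larger. Exceptions were OKF6 with SCC15 +YBX1 for replicate 3 (0.26 against -0.09) and OKF6 with SCC25 +YBX1 for replicate 2 (0.16 against 0.02). Alternatives tried were a replicate block, a fit on the compared groups alone, 2 other scalings (equal medians, quantiles), a flat or robust variance prior, a filter at the first quartile, voom, 2 added reads, and omission of each library.

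The members, gene lists and tests were chosen with earlier results of these data known, and the element was searched in a longer form before the letters given here were settled on. The text names the members, the NRF2 regulators, up to 2 called genes per direction from other lists in each comparison, YBX1 and the 5 genes most like the members; CHAC1, ASNS and DDIT3 in the knockdown were chosen after their values were seen. Shared 3′ sequence was measured by mapping 75-base pieces, taken every 5 bases, to hg38 with minimap2 2.31. Positions and transcript starts come from GENCODE v44. Plots used matplotlib 3.10.9 and Python 3.11.15.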

Additional observations from a re-analysis of the deposited data

Results flagged for a closer look

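After knockdown of YBX1, 3 of the 22 targets and NRF2 regulators looked at, or 13.6%, had log2 changes of one sign in every same-numbered pair of SCC15 and of the other sign in every pair of SCC25. Over all 12995 genes 386 did so, or 2.97%, and other genes, such as FTL and TXNRD2, were among them. The changes of NQO1 were -0.902, -0.142 and -0.002 in SCC15 and 0.274, 0.065 and 0.036 in SCC25, on the log2 scale, and the difference between the lines was 0.47 (standard error 0.41, unadjusted p = 0.267, adjusted p = 1.00, limma). For GCLC the difference was 0.54 (unadjusted p = 0.352, adjusted p = 1.00), and for SQSTM1 it was 0.81 (unadjusted p = 0.0479, adjusted p = 1.00). None of the 3 differences passed.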

How the results depend on the processing

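Under the 9 alternative settings, 255 of 267 values of the 9 targets and YBX1 between the lines kept their direction and their side of the threshold, 6 no longer passed, 5 newly passed and 1 turned its sign. For SCC25 minus OKF6 the number of targets called was 5, and 3 with only the groups compared and with no variance trend, where NQO1 and SRXN1 no longer passed; the cause was not tested. With 1 library left out it was 3 to 5, for SCC15 minus OKF6 it was 6 to 7 and for SCC15 minus SCC25 5 to 6. Neither equal medians nor quantile normalization changed these counts, and scaling to the plain total of reads was not tried. Without OKF6 replicate 1, which stood apart from the other OKF6 libraries, the genes called in all rose from 3923 to 5331 for SCC25 minus OKF6. For SCC15 minus OKF6 they rose from 6534 to 7434. The genes called in all in the SCC25 knockdown were 0 to 6, with 6 without SCC25 -YBX1 replicate 2. A fit with a replicate block called 6, 5 and 7 targets between the lines and 0 after either knockdown, as without the block, and changed no call of a target. Quantile normalization turned GCLC for SCC25 minus OKF6 to -0.02 and GCLM in the SCC15 knockdown to -0.00. Signs also turned with a library left out, all in values that had not passed. Between lines GCLM ran from -0.27 to 0.37 (SCC15 minus OKF6), GCLC from -0.29 to 0.34 and HMOX1 from -1.39 to 0.49 (both SCC25 minus OKF6). In the SCC15 knockdown NQO1 ran from -0.60 to 0.05, GCLM from -0.28 to 0.33, SRXN1 from -0.23 to 0.04 and HMOX1 from -0.23 to 0.47. In the SCC25 knockdown NQO1 ran from -0.01 to 0.30, GCLC from -0.24 to 0.69, SRXN1 from -0.06 to 0.08, SLC7A11 from -0.24 to 0.70, HMOX1 from -1.59 to 0.68, AKR1C1 from -0.47 to 0.66 and AKR1C2 from -0.04 to 0.91. For the difference between the knockdowns SRXN1 ran from -0.03 to 0.24, SLC7A11 from -1.23 to 0.07, HMOX1 from -1.69 to 0.58 and AKR1C2 from -0.83 to 0.11. Depth limits HMOX1, and AKR1C1 and AKR1C2 in SCC15, where a library held 0 to 72 reads.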
